A study of Mus musculus with 24 samples.

Results

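The genes described here are 33 genes of the p53 pathway: the p53 gene itself, its direct regulators and known target genes. They were taken from a given list and looked up on 24 arrays of mouse embryonic stem cells. 30 of the 33 had at least 1 probe set that the platform annotation assigns to a single gene, and each gene was represented by its brightest such probe set, judged by the mean of all 24 arrays. Trp53 (the p53 gene itself), Bax and Gdf15 were matched to no such probe set and were not analysed here. Of the 30 genes, 27 passed the filter for testing, which asked for log2 values of at least 5 on 3 or more arrays, among 9504 genes that passed it in all. Fas and Tnfrsf10b, which encode death receptors, and Dram1, which encodes a lysosomal membrane protein, did not pass. Of the 27 genes tested, 26 reached 5 on all 24 arrays, and Plk3 did so on 19.

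p53 is a transcription factor that is held at low levels by Mdm2 and Mdm4 and is stabilised when DNA is damaged or cells are stressed. It then switches on genes that halt the cell cycle, trigger apoptosis, repair DNA and adjust metabolism, and it also switches on Mdm2, which closes a negative feedback loop. Embryonic stem cells proliferate quickly and carry abundant p53, and p53 activity in them is linked to differentiation as well as to DNA damage.

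The arrays compare genotypes at Hdh, now named Htt, the mouse huntingtin gene, whose CAG repeat encodes a polyglutamine tract. All cells are described by the submitters as undifferentiated embryonic stem cells of strain 129/Sv. The 6 control arrays came from cells with 7 CAG repeats on both alleles, and the 6 knock-out arrays from cells whose genotype is given as null. The 4 knock-in lines, with 3 arrays each, keep 7 repeats on one allele and have an expanded second allele. By the genotype labels that allele has 16 repeats in Q20 and 45 in Q50, except for 43 in Q50 replicate 3. In Q91 it has 85 and in Q111 it has 111. Titles, group and genotype labels agree on this assignment, whereas a free-text label describes the control arrays as lacking Hdh and the knock-outs as controls; titles were followed. Each knock-in length is a single line, so repeat length and line cannot be told apart. The sources used here do not say whether the replicates were separate clones or parallel cultures, so every p-value rests on the spread among these arrays alone, which may be technical.

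Promoter sequence was examined for the genes tested on the arrays. RefSeq promoter windows (GRCm38.p6, 250 bases before to 50 after a transcript start) were held for 20 of the 27 tested genes. The windows were searched for the full p53 site, which is 2 adjoining copies of the 10-base p53 half-site, 20 bases in all, with the central C and G of both copies intact and at most 3 mismatches elsewhere. The motif is its own reverse complement, so both strands were covered. Such a match lay in the windows of 6 of the 20 genes (30.0%), against 153 of the 7782 array-tested genes with a window (1.97%) and 441 of all 27025 genes with one (1.63%). The half-site without mismatch, which overlaps the full site in part, lay in the windows of 10 of the 20, against 8.17% of the array-tested genes and 9.55% of all genes. The 6 full matches are printed below 5′ to 3′ with the match in capitals and 5 flanking bases on each side. They are shown because they differ in closeness to the motif and belong to genes that behaved differently on the arrays.
Ccng1: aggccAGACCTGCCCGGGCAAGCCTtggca
Cdkn1a: ttcagGAACATGTCTTGACATGTTCagccc
Rps27l: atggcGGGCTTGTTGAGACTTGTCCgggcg
Aen: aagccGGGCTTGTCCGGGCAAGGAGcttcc
Bbc3: cccgaCTGCAAGCCCCGACTTGTCCccagc
Sesn1: ccttcAAGCTTGTTTTTGCTGGCCTggtcc

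Coordinates are those of the printed 30 bases, flanks included, while positions from the transcript start are those of the first base in capitals. Each position is counted from the start whose window holds the match. The 20 genes have 28 windows, so a gene can have a further start to which its position does not apply. The Ccng1 stretch lies at chr11:40755457-40755486 on the minus strand, and its match begins at -195 and has 1 mismatch. The Cdkn1a stretch lies at chr17:29090923-29090952 on the plus strand, and its match begins at -51 and has 1 mismatch. For Rps27l the stretch is chr9:66946291-66946320 on the plus strand, and the match begins at -117 with 1 mismatch. The other matches have 3 mismatches each and lie on the plus strand, in stretches as follows: Aen at chr7:78895932-78895961 (from -121 or, at a second start, 11 bases after it), Bbc3 at chr7:16309481-16309510 (from -97) and Sesn1 at chr10:41887261-41887290 (from -173). A match describes letters in a window and shows neither binding nor regulation. On the arrays, Ccng1, Cdkn1a and Aen were higher than control in at least 1 knock-in line, while Rps27l, Bbc3 and Sesn1 passed in none. These are 3 of the 6 genes with a full match. Of the 14 p53 genes with a window and no full match, 8 were also higher in at least 1 line. Among all genes tested on the arrays, 76.1% were higher in no line. A link between a full match and the array values was not tested.

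Signal and cell identity were comparable across arrays only in part. Between 36.8% and 38.0% of probe sets reached 5 on any array. Htt averaged 8.01 ± 0.29 (SD, n = 6) in controls and 7.21 ± 0.27 (SD, n = 6) in knock-outs, but also only 6.96 to 7.54 in the 4 lines, so it separates the knock-out from control and not from the lines. The 3′ to 5′ difference of Actb, a sign of RNA integrity, was 1.54 on Q50 replicate 3 and 0.745 to 1.03 on the other arrays. All 10 pluripotency markers were above 5 in every group, with an array mean of 13.65 to 13.74 in controls and 13.69 to 13.87 in knock-outs. The corresponding mean was 12.84 to 13.28 in Q20 and Q91 and 12.85 to 13.52 in Q50 and Q111. Against control, 6 of these 10 markers were called lower in Q20, 2 in Q50, 7 in Q91 and 6 in Q111, and 0 higher. The share of all genes called lower was 10.4%, 2.42%, 11.3% and 11.1% in that order. In the knock-out, 2 of the 10 were called higher and 0 lower, against 7.55% and 8.81% of all genes. The 6 primed epiblast markers averaged 6.96 to 7.12 on the control arrays and 6.01 to 6.45 in knock-outs. They averaged 9.24 to 9.31 in Q20, 8.56 to 9.75 in Q91 and 9.82 to 10.10 in Q111, whereas the Q50 arrays spread from 7.43 to 9.13. Of them, Fgf5 and Zic2 were below 5 in controls, knock-outs, Q50 and Q91, and Fgf5 alone was below 5 in Q20. Against control, 5 of these 6 markers were called higher in Q20, 2 in Q50, 4 in Q91 and 6 in Q111, and 0 lower. Of all genes, 16.3%, 5.08%, 13.3% and 16.4% were called higher in that order. In the knock-out, 2 of the 6 were called lower and 0 higher, against 8.81% and 7.55% of all genes. The 10 fibroblast (feeder cell) markers had array means of 3.17 to 3.48 in controls, 2.91 to 3.15 in knock-outs and 3.03 to 3.18 in Q50, against 3.49 to 3.94 in Q20, 3.41 to 4.22 in Q91 and 3.73 to 4.05 in Q111. Dcn, Lum, Col3a1, Postn, Twist1 and Twist2 were below 5 in all groups. Col1a1, however, rose from a control mean of 3.73 to 7.98 in Q20, 7.48 in Q91 and 8.40 in Q111, and Col1a2 from 2.68 to 4.01 in Q91 and 5.08 in Q111. Thy1 fell from 5.97 in controls to 3.30 in knock-outs. These were the calls against control among the 4 fibroblast markers tested. The 8 primitive endoderm markers had array means of 4.38 to 4.94, with Gata6, Gata4, Sox17, Sox7 and Pdgfra below 5 in all groups. Of the 3 that were tested, 1 was called higher than control in each of Q20, Q91 and Q111. The share of all genes called higher was 16.3%, 13.3% and 16.4% in these lines. The 4 neuroectoderm markers had array means of 3.79 to 4.93, with Pax6 and Zic1 below 5 throughout. Nes rose from a control mean of 3.91 to 6.72 in Q20, 7.19 in Q91 and 7.22 in Q111, and Sox1, at 5.75 in controls, fell by 2.25, 1.94 and 1.96 in these lines. The part that these marker shifts have in the p53 gene values was not tested. In bulk RNA, a change in the share of a cell type and a change per cell cannot be told apart.

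The p53 genes were more often higher than lower in the knock-in arrays. A gene was called where limma gave an adjusted p under 0.05 against the 6 controls, which all 5 comparisons share. In Q91, 13 of the 27 genes tested were called higher and 0 lower, against a background of 13.3% higher and 11.3% lower among the 9504 genes. In Q20, 8 were higher and 0 lower (background 16.3% and 10.4%). In Q50, 6 were higher and 0 lower (background 5.08% and 2.42%). In Q111, 6 were higher and 1 lower (background 16.4% and 11.1%), so that the higher share of 22.2% is close to the background. In the knock-out, 5 were higher and 1 lower (background 7.55% and 8.81%). The median difference from control over the 27 genes was 0.60 in Q91, 0.41 in Q50, 0.25 in Q20, 0.24 in Q111 and 0.20 in the knock-out on the log2 scale, where the median over all 9504 genes lay between -0.02 and 0.03.

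The split of all genes into higher and lower calls depended on the scaling, while the p53 genes had more higher than lower calls in every line under each scaling. After median centring the background became 12.4% higher and 18% lower in Q20, 3.17% and 4.31% in Q50, 10.7% and 16% in Q91, and 12.3% and 20.1% in Q111. The median over all genes shifted to -0.10 in Q20 and -0.13 in Q111. The p53 genes then gave 8 higher and 1 lower in Q20, 5 and 0 in Q50, 12 and 0 in Q91, and 4 and 1 in Q111, with medians of 0.14, 0.33, 0.53 and 0.12. After quantile normalization the background was 13.7% higher and 17.3% lower in Q20, 3.56% and 4.59% in Q50, 11.8% and 15.3% in Q91, and 14% and 19.1% in Q111. The p53 genes then gave 8 higher and 1 lower in Q20, 5 and 0 in Q50, 13 and 0 in Q91, and 5 and 1 in Q111.

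**Figure D1:**
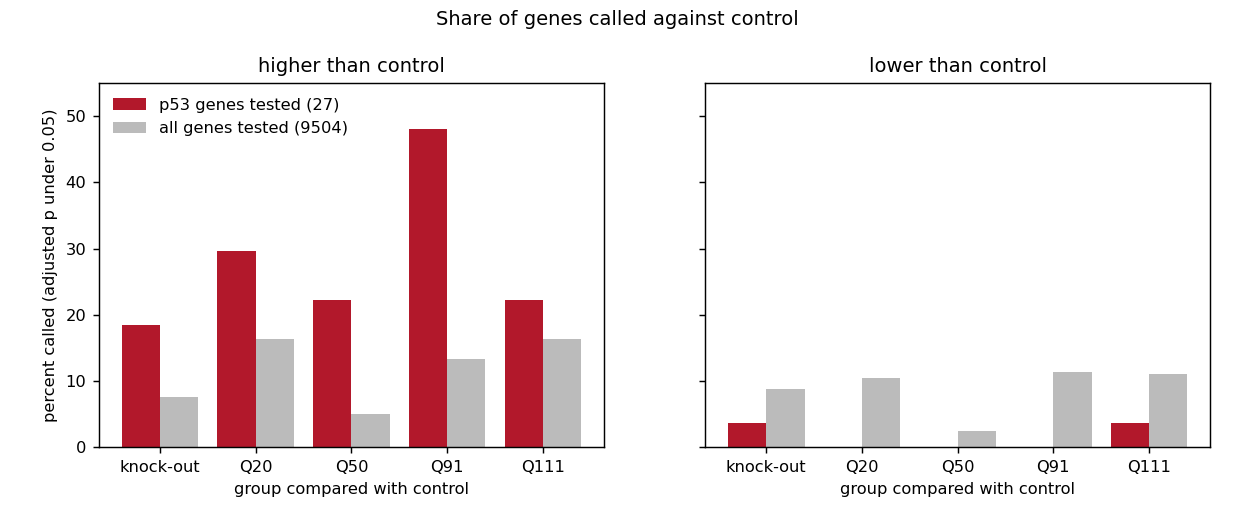
Percent of genes called against control (adjusted p under 0.05, vertical axis) in each group, for the 27 p53 genes tested (red) and all 9504 genes tested (grey), higher on the left and lower on the right. The widest gap is in Q91, where 48.1% of the p53 genes and 13.3% of all genes were higher.

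**Figure D2:**
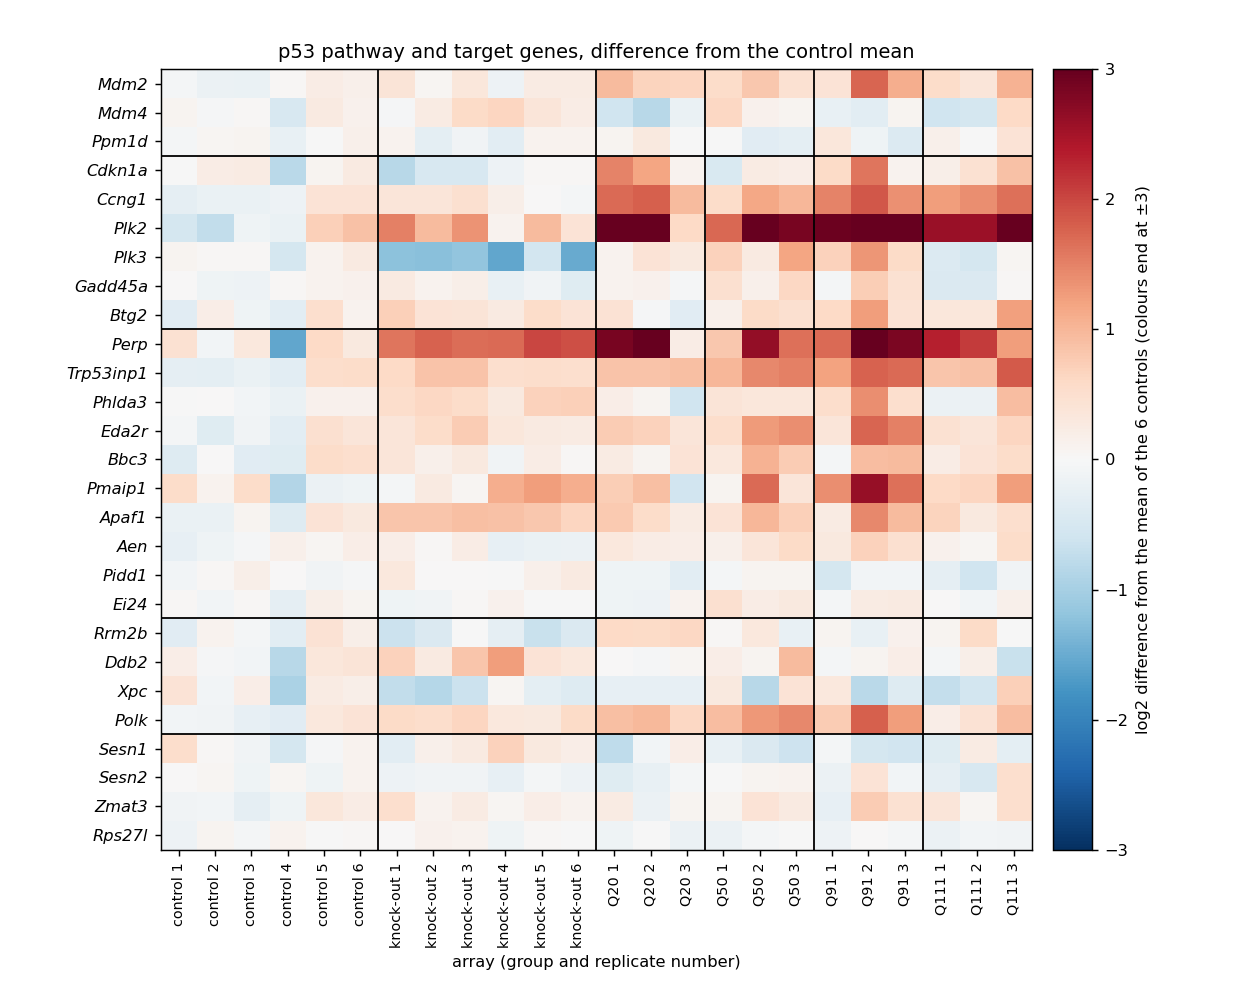
Log2 difference from the mean of the 6 controls (colour, ending at 3 in both directions) for each tested p53 gene (rows, grouped by role) on each array (columns). Plk2, Perp, Ccng1 and Trp53inp1 are red across most knock-in arrays, Plk3 is blue across the knock-outs, and control replicate 4 is blue and controls 5 and 6 are light red for many genes.

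Arrays of 1 group were not alike over these genes. The mean over the 27 genes, relative to the control mean, was -0.36 in control replicate 4, 0.24 in both control replicates 5 and 6, and -0.07 to -0.03 in the other 3 controls. It was 0.18 to 0.30 in the knock-outs. Within the lines it was 0.54, 0.51 and 0.15 in Q20, 0.35, 0.64 and 0.61 in Q50, 0.46, 1.08 and 0.69 in Q91, and 0.28, 0.29 and 0.67 in Q111. Q20 replicate 3 was thus low in its line, and Q91 replicate 2 and Q111 replicate 3 were high. Over all tested probe sets, the array median was 8.25 in control replicate 4 and 8.50 to 8.57 in the other controls. The low level of that control was therefore not confined to the p53 genes. Without Q91 replicate 2 the count in Q91 was 8 of 27, and without Q20 replicate 1 the count in Q20 was 4. Against control replicates 4 to 6 alone, a setting chosen after the control values were seen, the counts were 3 in Q20, 2 in Q50, 9 in Q91 and 3 in Q111. Against control replicates 1 to 3 alone they were 8, 7, 14 and 6. No share of all genes stands beside these counts, which rest on fewer arrays. A lower count can therefore not be read as particular to the p53 genes.

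The core of the pathway was represented by Mdm2, the ubiquitin ligase that degrades p53 and is itself a p53 target, Mdm4, a relative that masks the p53 activation domain, and Ppm1d, a phosphatase that switches off p53 signalling. Mdm2 ran from 10.61 through a median of 10.79 to 11.03 in the controls, and from 10.66 through a median of 11.05 to 11.18 in the knock-outs. Mdm2 held 11.76, 11.48 and 11.45 on the Q20 arrays, 11.35, 11.60 and 11.26 on the Q50 arrays, 11.21, 12.55 and 11.89 on the Q91 arrays and 11.34, 11.17 and 11.83 on the Q111 arrays. All 12 knock-in arrays lay above all controls, Q91 replicate 2 highest, while the knock-outs overlapped the controls. Mdm2 rose by 0.76 in Q20 (SE 0.20, adjusted p = 0.0097), 1.08 in Q91 (SE 0.20, adjusted p = 6.97e-04) and 0.65 in Q111 (SE 0.20, adjusted p = 0.0234), or 1.69-, 2.12- and 1.57-fold. It did not pass in Q50 (0.60, adjusted p = 0.0715) or the knock-out (0.19, adjusted p = 0.51). Its second probe set passed in all 4 lines, with differences of 0.90, 0.90, 1.23 and 0.72 in Q20, Q50, Q91 and Q111. The Q111 call was lost without Q111 replicate 1 or 3, the Q20 call without Q20 replicate 1, and the Q111 call also after median centring (0.52, adjusted p = 0.0615).

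Mdm4 ran from 10.77 through a median of 11.32 to 11.53 in the controls, and from 11.22 through a median of 11.57 to 11.91 in the knock-outs. Mdm4 held 10.67, 10.42 and 11.05 on the Q20 arrays, 11.88, 11.39 and 11.34 on the Q50 arrays, 11.03, 10.95 and 11.35 on the Q91 arrays and 10.65, 10.72 and 11.84 on the Q111 arrays. In both Q20 and Q111, 2 of 3 arrays lay below all controls, and the remaining Q111 array lay above them. Of the knock-outs 3 of 6 and of the Q50 arrays 1 of 3 lay above all controls, while Q91 stayed within the control range. Mdm4 passed in none of the comparisons with control, with differences of 0.34 in the knock-out, -0.55 in Q20 (adjusted p = 0.0829), 0.28 in Q50, -0.15 in Q91 and -0.18 in Q111. After median centring it was lower in Q20 (-0.65, adjusted p = 0.0247), and its second probe set was lower there on the deposited scale (-1.07, adjusted p = 0.038). The main probe set of Mdm4 is of a type that can match several near-identical transcripts. Ppm1d ran from 9.64 through a median of 9.88 to 10.01 in the controls, and from 9.54 through a median of 9.86 to 9.98 in the knock-outs. Ppm1d held 9.94, 10.16 and 9.85 on the Q20 arrays, 9.85, 9.51 and 9.56 on the Q50 arrays, 10.20, 9.73 and 9.45 on the Q91 arrays and 10.03, 9.86 and 10.28 on the Q111 arrays. Every group overlapped the controls, and Ppm1d differed from them by -0.22 in Q50 to 0.19 in Q111, with no call.

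Among 6 genes that restrain the cell cycle, 3 were higher in Q20, 2 in Q50, 4 in Q91 and 3 in Q111, where 16.3%, 5.08%, 13.3% and 16.4% of all genes were. Ccng1, cyclin G1, a p53 target that feeds back on Mdm2, gave the smallest adjusted p of the p53 genes in Q20, Q91 and Q111. Ccng1 ran from 11.63 through a median of 11.72 to 12.32 in the controls, and from 11.83 through a median of 12.16 to 12.37 in the knock-outs. Ccng1 held 13.59, 13.69 and 12.86 on the Q20 arrays, 12.44, 13.05 and 12.88 on the Q50 arrays, 13.38, 13.75 and 13.26 on the Q91 arrays and 13.15, 13.29 and 13.54 on the Q111 arrays. All knock-in arrays lay above all controls, and the knock-outs overlapped the controls. Ccng1 rose by 1.48 in Q20 (SE 0.20, adjusted p = 4.44e-05), 0.89 in Q50 (SE 0.20, adjusted p = 0.0103), 1.57 in Q91 (SE 0.20, adjusted p = 1.67e-05) and 1.43 in Q111 (SE 0.20, adjusted p = 4.53e-05). These are 2.79-, 1.86-, 2.96- and 2.7-fold, against a difference of 0.22 in the knock-out (adjusted p = 0.414). The rise in Q50 was lost without Q50 replicate 2 and on the second probe set (0.35, adjusted p = 0.184). It was also lost against control replicates 4 to 6 (0.67, adjusted p = 0.117).

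Plk2, a stress-induced polo-like kinase, differed from control more than any other tested p53 gene in each of the 4 lines, though not in the knock-out. Plk2 ran from 5.80 through a median of 6.39 to 7.42 in the controls, and from 6.66 through a median of 7.49 to 8.07 in the knock-outs. Plk2 held 10.16, 9.93 and 7.15 on the Q20 arrays, 8.26, 9.81 and 9.40 on the Q50 arrays, 9.49, 11.37 and 9.82 on the Q91 arrays and 9.13, 9.11 and 9.73 on the Q111 arrays. Q20 replicate 3, at 7.15, lay within the control range, and the other 11 knock-in arrays lay above it. Plk2 rose by 2.54 in Q20 (SE 0.56, adjusted p = 0.00242), 2.61 in Q50 (SE 0.56, adjusted p = 0.00714), 3.68 in Q91 (SE 0.56, adjusted p = 9.40e-05) and 2.78 in Q111 (SE 0.56, adjusted p = 0.00106), or 5.81-, 6.12-, 12.8- and 6.87-fold. The knock-out difference of 0.88 did not pass (adjusted p = 0.21). That difference was 1.73 with replicates 1 to 3 of both groups and 0.02 with replicates 4 to 6. The rise in Q50 was lost against control replicates 4 to 6 alone (2.15, adjusted p = 0.0825).

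Plk3, a related kinase of the DNA damage response, was the one p53 gene that fell in the knock-out. Plk3 ran from 5.57 through a median of 6.17 to 6.37 in the controls, and from 4.56 through a median of 4.87 to 5.55 in the knock-outs. Plk3 held 6.22, 6.51 and 6.40 on the Q20 arrays, 6.79, 6.37 and 7.28 on the Q50 arrays, 6.80, 7.43 and 6.68 on the Q91 arrays and 5.69, 5.57 and 6.17 on the Q111 arrays. No knock-out array reached the lowest control, and the 3 Q91 arrays exceeded the highest. Plk3 fell by 1.21 in the knock-out (SE 0.19, adjusted p = 2.61e-04), to a mean of 4.89, below 5, where signal is not well told from background. The fall held with replicates 1 to 3 alone (-1.27, adjusted p = 0.00512) and with replicates 4 to 6 alone (-1.15, adjusted p = 0.0436). In Q91 it rose by 0.87 (SE 0.23, adjusted p = 0.00914), a call lost without Q91 replicate 2. Its differences were 0.27 in Q20, 0.71 in Q50 (adjusted p = 0.0587) and -0.30 in Q111.

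Cdkn1a, the inhibitor p21 of cyclin-dependent kinases and the classical p53 target, was less uniform. Cdkn1a ran from 8.36 through a median of 9.32 to 9.45 in the controls, and from 8.35 through a median of 8.85 to 9.21 in the knock-outs. Cdkn1a held 10.65, 10.35 and 9.28 on the Q20 arrays, 8.70, 9.42 and 9.37 on the Q50 arrays, 9.73, 10.77 and 9.27 on the Q91 arrays and 9.35, 9.62 and 10.05 on the Q111 arrays. In Q20, Q91 and Q111, 2 of 3 arrays each lay above all controls, and no Q50 or knock-out array did. Cdkn1a rose in Q20 by 0.93 (SE 0.32, adjusted p = 0.0403), a call lost without Q20 replicate 1 or 2 and without control replicate 1 or 4. It did not pass in Q91 (0.76, adjusted p = 0.1), Q111 (0.51, adjusted p = 0.266), Q50 (-0.0028, adjusted p = 0.997) or the knock-out (-0.31, adjusted p = 0.482). A second Cdkn1a probe set, with a control mean of 2.49, gave a different picture. It was higher in all 4 lines, by 2.88 in Q20, 2.37 in Q50, 2.29 in Q91 and 3.01 in Q111 (adjusted p = 0.000693, 0.0108, 0.00435 and 0.000409), and by 0.12 in the knock-out (adjusted p = 0.903). Its control level lies near background, so the size of these rises is not settled.

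Btg2, an antiproliferative transcriptional cofactor, was called in Q91 and Q111. Btg2 ran from 8.19 through a median of 8.52 to 9.03 in the controls, and from 8.79 through a median of 8.95 to 9.24 in the knock-outs. Btg2 held 8.97, 8.49 and 8.19 on the Q20 arrays, 8.69, 9.11 and 9.01 on the Q50 arrays, 9.12, 9.79 and 8.96 on the Q91 arrays and 8.88, 8.87 and 9.77 on the Q111 arrays. Single arrays, Q91 replicate 2 at 9.79 and Q111 replicate 3 at 9.77, stood above the rest. Btg2 rose by 0.76 in Q91 (SE 0.23, adjusted p = 0.0195) and 0.64 in Q111 (SE 0.23, adjusted p = 0.042); the first call was lost without Q91 replicate 2, and the second without Q111 replicate 3 or control replicate 1, 3 or 4, after either rescaling and on the second probe set. Gadd45a, a damage-induced growth arrest gene, passed in no comparison, with differences of -0.28 in Q111 to 0.42 in Q50.

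**Figure D3:**
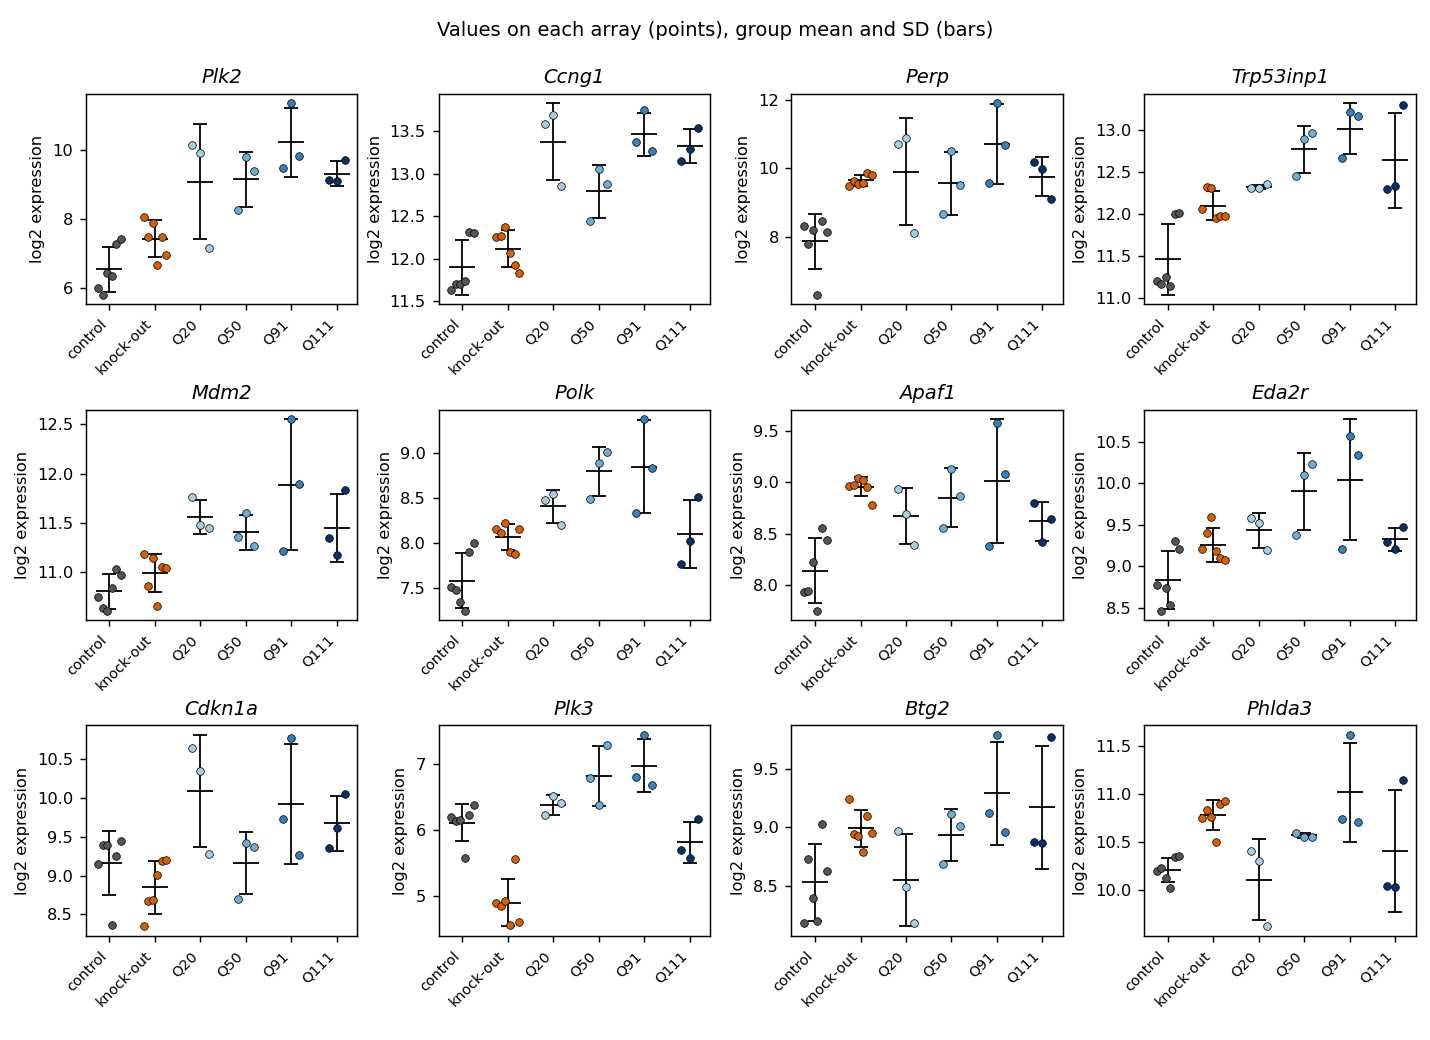
Log2 expression (vertical axis, own scale per panel) of 12 p53 genes on each array, by group (horizontal axis). Points are arrays, the long bar is the group mean and the whiskers are the SD (n = 6 for control and knock-out, n = 3 for each line). All 12 knock-in arrays exceed all controls for Ccng1, Mdm2 and Trp53inp1, and all 6 knock-outs lie below all controls for Plk3.

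Of 10 apoptosis genes tested, 4 were higher in the knock-out, 2 in Q20, 3 in Q50, 7 in Q91 and 2 in Q111, and 1 was lower in Q111. The share of all genes higher was 7.55%, 16.3%, 5.08%, 13.3% and 16.4% in that order, so the counts in Q20 and Q111 are near the background. Perp, a membrane protein of cell junctions that promotes p53-dependent apoptosis, was higher in the knock-out and in several lines. Perp ran from 6.30 through a median of 8.16 to 8.46 in the controls, and from 9.47 through a median of 9.60 to 9.86 in the knock-outs. Perp held 10.71, 10.89 and 8.10 on the Q20 arrays, 8.67, 10.50 and 9.52 on the Q50 arrays, 9.56, 11.90 and 10.68 on the Q91 arrays and 10.19, 9.96 and 9.11 on the Q111 arrays. All knock-outs lay above all controls, of which control replicate 4 was far lower than the rest, and among the knock-in arrays only Q20 replicate 3 did not exceed them. Perp rose by 1.78 in the knock-out (SE 0.46, adjusted p = 0.013), 2.04 in Q20 (SE 0.57, adjusted p = 0.0121), 2.85 in Q91 (SE 0.57, adjusted p = 0.00113) and 1.89 in Q111 (SE 0.57, adjusted p = 0.0178). It did not pass in Q50 (1.70, adjusted p = 0.0677). The knock-out difference was 1.46 with replicates 1 to 3 of both groups (adjusted p = 0.256) and 2.10 with replicates 4 to 6 (adjusted p = 0.121). The Q20 call was lost without Q20 replicate 1 or 2, and the Q111 call without Q111 replicate 1 or 2.

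Trp53inp1, a stress protein that promotes p53 phosphorylation, passed in the knock-out and in each line. Trp53inp1 ran from 11.14 through a median of 11.22 to 12.01 in the controls, and from 11.95 through a median of 12.02 to 12.32 in the knock-outs. Trp53inp1 held 12.31, 12.31 and 12.35 on the Q20 arrays, 12.45, 12.90 and 12.97 on the Q50 arrays, 12.67, 13.22 and 13.16 on the Q91 arrays and 12.29, 12.33 and 13.30 on the Q111 arrays. The 12 knock-in arrays all lay above the controls, and the knock-outs overlapped control replicates 5 and 6, which stood apart from the other controls. Trp53inp1 rose by 0.86 in Q20 (SE 0.23, adjusted p = 0.00865), 1.31 in Q50 (SE 0.23, adjusted p = 0.00177), 1.56 in Q91 (SE 0.23, adjusted p = 6.75e-05) and 1.18 in Q111 (SE 0.23, adjusted p = 7.78e-04). The knock-out rise of 0.64 (SE 0.19, adjusted p = 0.0248) was 1.03 with replicates 1 to 3 of both groups and 0.25 with replicates 4 to 6 (adjusted p = 0.663). It was lost without any 1 of control replicates 1 to 4 or knock-out replicates 2 and 3. On the second probe set the rise passed in the knock-out (0.70), Q91 (1.13) and Q111 (0.83) but not in Q20 (0.37, adjusted p = 0.363) or Q50 (0.52, adjusted p = 0.265). Against control replicates 4 to 6 alone, the Q20 difference was 0.61 (adjusted p = 0.131).

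Apaf1, the scaffold of the caspase-activating apoptosome, was higher in the knock-out, Q50 and Q91. Apaf1 ran from 7.75 through a median of 8.08 to 8.55 in the controls, and from 8.78 through a median of 8.97 to 9.04 in the knock-outs. Apaf1 held 8.93, 8.69 and 8.39 on the Q20 arrays, 8.55, 9.13 and 8.87 on the Q50 arrays, 8.38, 9.58 and 9.08 on the Q91 arrays and 8.80, 8.42 and 8.64 on the Q111 arrays. The knock-outs lay above all controls within a narrow range, and each line overlapped the controls with at least 1 array. Apaf1 rose by 0.82 in the knock-out (SE 0.17, adjusted p = 0.00281), 0.71 in Q50 (SE 0.21, adjusted p = 0.0388) and 0.87 in Q91 (SE 0.21, adjusted p = 0.00444). It did not pass in Q20 (0.53, adjusted p = 0.0634) or Q111 (0.48, adjusted p = 0.0917). The Q50 call was lost after either rescaling and without Q50 replicate 2 or 3 or any 1 of control replicates 1 to 4, and the Q91 call without Q91 replicate 2. With replicates 4 to 6 alone the knock-out difference was 0.67 (adjusted p = 0.168).

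Eda2r, a receptor of the tumour necrosis factor family, was called in Q50 and Q91. Eda2r ran from 8.46 through a median of 8.75 to 9.30 in the controls, and from 9.07 through a median of 9.19 to 9.59 in the knock-outs. Eda2r held 9.59, 9.52 and 9.19 on the Q20 arrays, 9.37, 10.10 and 10.23 on the Q50 arrays, 9.21, 10.57 and 10.35 on the Q91 arrays and 9.29, 9.20 and 9.48 on the Q111 arrays. Q50 replicates 2 and 3 and Q91 replicates 2 and 3 were the highest arrays, and Q91 replicate 1 lay within the control range. Eda2r rose by 1.07 in Q50 (SE 0.25, adjusted p = 0.0126) and 1.21 in Q91 (SE 0.25, adjusted p = 0.0015), and the Q50 call was lost without Q50 replicate 2 or 3. Phlda3, a pleckstrin homology protein that restrains Akt signalling, was called in the knock-out and Q91. Phlda3 ran from 10.03 through a median of 10.22 to 10.35 in the controls, and from 10.50 through a median of 10.80 to 10.93 in the knock-outs. Phlda3 held 10.41, 10.31 and 9.63 on the Q20 arrays, 10.60, 10.56 and 10.55 on the Q50 arrays, 10.74, 11.61 and 10.71 on the Q91 arrays and 10.05, 10.04 and 11.14 on the Q111 arrays. All knock-outs and all Q50 and Q91 arrays lay above the controls, while Q20 and Q111 overlapped them. Phlda3 rose by 0.56 in the knock-out (SE 0.18, adjusted p = 0.0393) and by 0.81 in Q91 (SE 0.22, adjusted p = 0.0119). The Q91 call was lost without Q91 replicate 2, and the knock-out call without any 1 of control replicates 1 to 4 or of the knock-out replicates other than 4.

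The other apoptosis genes were called in 1 comparison or none. Pmaip1, which encodes the BH3-only protein Noxa, was at 8.18 ± 0.53 (SD, n = 6) in controls and 10.07 ± 0.63 (SD, n = 3) in Q91, where all 3 arrays lay above the controls, and rose there by 1.89 (SE 0.42, adjusted p = 0.00255). In the knock-outs its difference was -0.30 with replicates 1 to 3 of both groups and 1.55 with replicates 4 to 6. Aen, a nuclease of apoptotic cells, rose in Q91 by 0.48 (SE 0.14, adjusted p = 0.0158), which was lost after median centring and without Q91 replicate 2. Pidd1, a death-domain scaffold, fell in Q111 by 0.32 (SE 0.12, adjusted p = 0.0468), a call lost without Q111 replicate 1 or 2 and without any 1 control other than replicate 5. Bbc3, which encodes the BH3-only protein Puma, had differences of 0.71 in Q50 (adjusted p = 0.0659) and 0.60 in Q91 (adjusted p = 0.0699). Ei24, an endoplasmic reticulum protein, differed by 0.33 in Q50 (adjusted p = 0.0546) and by -0.05 to 0.15 elsewhere. The untested Fas had group means of 4.61 to 4.87, and Tnfrsf10b of 4.02 to 4.15.

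Of 4 genes of DNA repair and nucleotide supply, Polk, a polymerase that copies past damaged bases, was called in Q20, Q50 and Q91. Polk ran from 7.25 through a median of 7.50 to 8.0 in the controls, and from 7.88 through a median of 8.14 to 8.23 in the knock-outs. Polk held 8.48, 8.55 and 8.20 on the Q20 arrays, 8.50, 8.89 and 9.02 on the Q50 arrays, 8.34, 9.38 and 8.84 on the Q91 arrays and 7.77, 8.02 and 8.51 on the Q111 arrays. All arrays of Q20, Q50 and Q91 lay above the controls, and 1 Q111 array and 2 knock-outs did not. Polk rose by 0.83 in Q20 (SE 0.20, adjusted p = 0.00561), 1.22 in Q50 (SE 0.20, adjusted p = 0.0014) and 1.27 in Q91 (SE 0.20, adjusted p = 1.68e-04), and differed by 0.52 in Q111 (adjusted p = 0.0669) and 0.49 in the knock-out (adjusted p = 0.0528). Its second probe set, with a control mean of 5.95, passed only in Q91 (0.56, adjusted p = 0.0163) and differed by 0.00102 in Q20 and 0.15 in Q50. Rrm2b, the p53-induced subunit of ribonucleotide reductase, rose in Q20 by 0.59 (SE 0.18, adjusted p = 0.0176). Its mean was 7.16 ± 0.30 (SD, n = 6) in controls and 7.75 ± 0.03 (SD, n = 3) in Q20. That call was lost without any 1 Q20 array, and the knock-out difference of -0.41 did not pass (adjusted p = 0.0616). Ddb2, which recognises ultraviolet damage, rose in the knock-out by 0.63 (SE 0.21, adjusted p = 0.0477). Its mean was 7.23 ± 0.45 (SD, n = 6) in controls and 7.85 ± 0.37 (SD, n = 6) in knock-outs. The Ddb2 call was lost on the second probe set (0.91, adjusted p = 0.0727) and without any 1 of control replicates 1 to 4 or knock-out replicates 1, 3, 4 and 5. Xpc, another damage sensor, passed nowhere, with differences of -0.48 in the knock-out to -0.05 in Q50.

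None of the 4 tested stress and metabolism genes was called against control in any group. Of all genes, 16.4% were called in the knock-out, 26.7% in Q20, 7.50% in Q50, 24.6% in Q91 and 27.4% in Q111. With 4 genes, the lack of calls can therefore not be read as particular to them. Sesn1 and Sesn2, sestrins that curb growth signalling under stress, differed by -0.42 to 0.22 and by -0.22 to 0.05. Zmat3, a zinc finger RNA-binding protein, differed by 0.06 to 0.32. Rps27l, a ribosomal protein homologue, was at 14.53 to 14.68 in all groups, and its probe set is of a type that can match near-identical transcripts. The untested Dram1 had group means of 2.21 to 2.30.

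The knock-out was also set against the mean of the 4 lines, a difference that holds no control value, although the error came from the fit of all 24 arrays. Of the 27 genes, 4 were higher in the knock-out and 9 lower, or 48.1% called. The background was as wide, with 21.2% of genes higher and 27.9% lower on the deposited scale, 28.7% and 23.8% after quantile normalization, and 27.8% and 22.7% after median centring, so the count itself is not particular to p53 genes. The log2 difference, knock-out minus lines, was -1.60 for Plk3 (95% interval -1.93 to -1.26, adjusted p = 1.26e-07), -1.12 for Ccng1 (-1.42 to -0.82, adjusted p = 2.44e-06) and -2.03 for Plk2 (-2.85 to -1.21, adjusted p = 2.79e-04). Also lower in the knock-out were Cdkn1a, with a difference of -0.86 (adjusted p = 0.00411), Rrm2b (-0.62), Trp53inp1 (-0.59), Mdm2 (-0.59), Polk (-0.47) and Aen (-0.36). Those higher in the knock-out were Ddb2 by 0.55, Sesn1 by 0.50, Mdm4 by 0.49 and Pidd1 by 0.30, of which Ddb2, Sesn1 and Mdm4 did not pass without knock-out replicate 4. On the second probe set the calls of Trp53inp1 (adjusted p = 0.97), Polk (adjusted p = 0.544), Aen (adjusted p = 0.0509), Sesn1 and Mdm4 were lost. Perp and Apaf1 did not pass, with intervals of -1.17 to 0.50 and -0.14 to 0.47, which leave room for a difference in either direction. The cell cycle restrainers thus gave 4 of 6 lower, and the apoptosis genes 1 higher and 2 lower of 10.

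**Figure D4:**
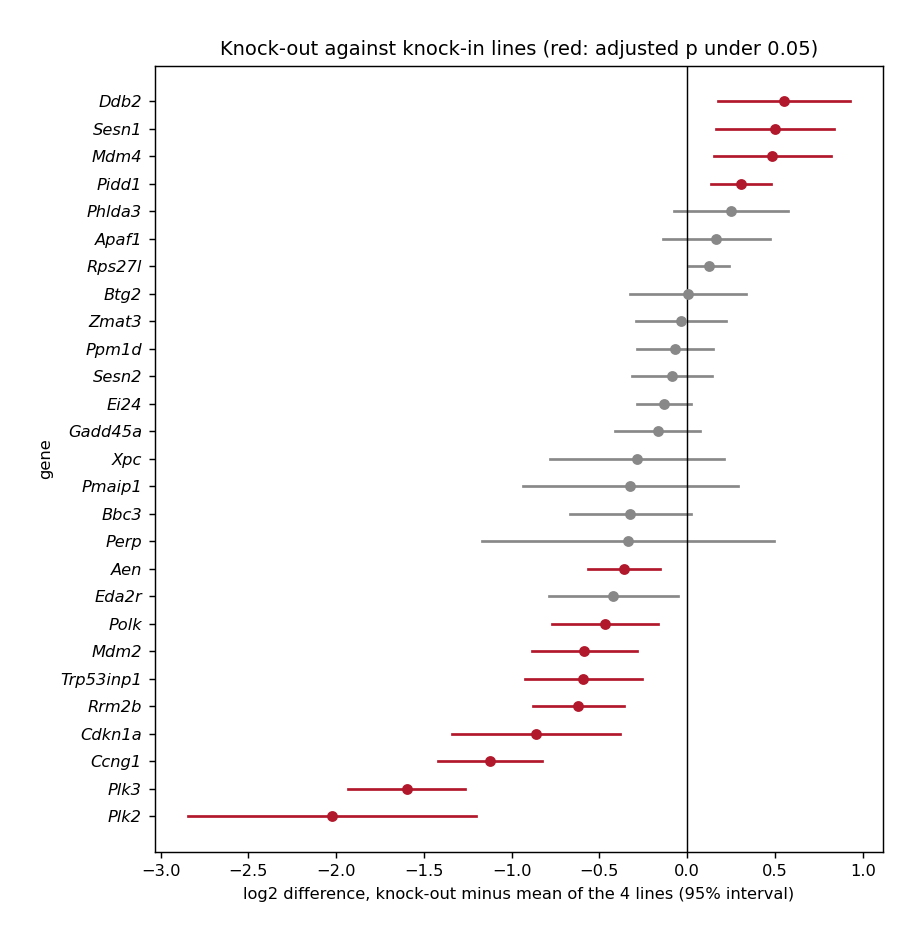
Log2 difference between the knock-out and the mean of the 4 lines (horizontal axis, 95% interval as a bar) for each tested p53 gene (vertical axis), red where the adjusted p was under 0.05. Plk2, Plk3 and Ccng1 lie farthest to the left and Ddb2, Sesn1, Mdm4 and Pidd1 to the right.

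Whether the lines differ from each other was asked in the 12 knock-in arrays alone. The moderated F-test called 0 of the 27 p53 genes, against 0.116% of all genes. At an unadjusted p under 0.05 it gave 3 of 27 (11.1%), against 14.6% of all genes, and the smallest adjusted p was 0.169, for Plk3. The slope on the repeat number of the longer allele called 0 p53 genes in either direction, against 0.021% of genes higher and 0.0316% lower. At an unadjusted p under 0.05 it gave 1 of 27 (3.70%), against 4.44% of genes. That gene was Btg2, with a slope of 0.69 per 100 repeats (95% interval 0.06 to 1.32, adjusted p = 0.985 by limma). The interval for Ccng1 was -0.43 to 0.85 and that for Plk2 was -1.0 to 2.26 per 100 repeats, so both intervals hold slopes of either sign. The larger number of calls in Q91 than in the other lines is therefore not shown to be a difference between lines.

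Other genes of the pathway were counted by list. Of 25 upstream regulators of p53, 19 were tested: 1 was higher and 0 lower in the knock-out, 2 and 3 in Q20, 1 and 0 in Q50, 1 and 0 in Q91, and 1 and 2 in Q111. The share called was 5.26%, 26.3%, 5.26%, 5.26% and 15.8%, at or below the 16.4%, 26.7%, 7.50%, 24.6% and 27.4% of all genes, and the median differences were -0.10 to 0.03. Trp53bp1, a DNA damage adaptor, rose by 0.56 in Q20, 0.70 in Q50, 0.73 in Q91 and 0.55 in Q111 (adjusted p = 0.0066, 0.00514, 9.77e-04 and 0.00687). Sirt1, a deacetylase of p53, fell by 0.37 in Q20 and 0.35 in Q111. Hipk2, a kinase that phosphorylates p53, rose by 0.77 in the knock-out (adjusted p = 0.0117), and Chek1, a checkpoint kinase, fell by 0.59 in Q111 (adjusted p = 0.0107).

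Of 35 further p53 targets, 26 were tested: 5 were higher and 3 lower in the knock-out, 3 and 3 in Q20, 2 and 0 in Q50, 6 and 2 in Q91, and 4 and 5 in Q111. The share called was 30.8%, 23.1%, 7.69%, 30.8% and 34.6%, near that of all genes in Q20 and Q50. Their medians lay between -0.02 and 0.12, below the 0.20 to 0.60 of the 27 genes described above. Thbs1, an extracellular matrix glycoprotein, rose from a control mean of 3.20 to 9.87 in Q20, 7.37 in Q50, 10.67 in Q91 and 9.87 in Q111. Its control level is near background, so the size of the rise is not settled. Igfbp3, which binds insulin-like growth factors, fell by 1.98 in the knock-out (adjusted p = 0.0136) and rose by 3.07 in Q20, 2.85 in Q91 and 3.62 in Q111. Sfn, the 14-3-3 sigma gene that holds cells in G2, rose by 1.40 in Q20, 2.01 in Q91 and 1.73 in Q111. Prkab1, a subunit of AMP-activated kinase, rose by 0.29 in the knock-out and fell by 0.38 in Q20, 0.51 in Q91 and 0.34 in Q111.

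Of 16 genes of the BCL2 family and caspases, 13 were tested: 2 were higher and 0 lower in the knock-out, 2 and 1 in Q20, 1 and 0 in Q50, 3 and 1 in Q91, and 2 and 0 in Q111. The share called was 15.4%, 23.1%, 7.69%, 30.8% and 15.4%. Of all genes, 16.4%, 26.7%, 7.50%, 24.6% and 27.4% were called, in that order. The widest gap is in Q111, where the list share is lower, but each list share rests on only 13 genes. Bcl2l11, which encodes the BH3-only protein Bim, rose by 0.85 in the knock-out, 1.28 in Q20, 1.08 in Q50, 1.45 in Q91 and 1.30 in Q111 (adjusted p = 0.0132, 0.00177, 0.019, 6.46e-04 and 0.00142). Casp8, the initiator caspase of death receptors, rose from a control mean of 4.29 to 5.69 in the knock-out (adjusted p = 0.00779). Bik, also BH3-only, had a control mean of 4.41 and rose to 5.12 in Q20 and 5.32 in Q91. Both control means lie under 5, so the size of these rises is not settled. Bmf, of the same class as Bik, fell by 0.96 in Q20 and 1.04 in Q91.

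Of 18 cell cycle genes, 17 were tested: 3 were higher and 1 lower in the knock-out, 1 and 5 in Q20, 1 and 1 in Q50, 0 and 3 in Q91, and 0 and 7 in Q111. Of all genes, 7.55% were higher and 8.81% lower in the knock-out, 5.08% and 2.42% in Q50, and 13.3% and 11.3% in Q91. The share of all genes higher was 16.3% in Q20 and 16.4% in Q111. The share of all genes lower was 10.4% in Q20 and 11.1% in Q111 on the deposited scale. After median centring, under which this list was not counted, it was 18% and 20.1%. Ccnd2, cyclin D2, fell by 0.97 in the knock-out, 1.54 in Q20, 1.83 in Q50, 1.69 in Q91 and 1.65 in Q111 (adjusted p = 0.0377, 0.00512, 0.00559, 0.00275 and 0.00279). Ccnd3, cyclin D3, fell by 1.11 in Q20, 1.13 in Q91 and 1.16 in Q111. Mcm2, of the replicative helicase, fell by 0.38 in Q20 and 0.39 in Q111, and E2f1, a driver of S phase genes, fell by 0.66 and 0.65 in these lines. The median over this list was -0.20 in Q20, -0.03 in Q50, -0.09 in Q91, -0.28 in Q111 and 0.01 in the knock-out.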

How the data were processed

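Total RNA of each culture was hybridised to 1 Affymetrix mouse array. The deposited values are log2 expression values that the authors made with GCRMA, per the submitters' processing notes, and no source used here gives its version. GCRMA corrects background, normalizes between arrays and summarises probes, so values near background carry little information. Of 45037 probe sets (64 controls left out), 17980 reached 5 on 3 or more arrays and entered limma 3.58.1 (R 4.3.3), fitted on all 24 arrays with a mean per group (18 residual degrees of freedom). Tests were two-sided and adjusted by Benjamini-Hochberg over all 17980. The F-test and the slope used the 12 knock-in arrays. The scripts were tested on simulated data.

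The genes and lists were chosen with earlier results of these data known. Values on every array are given for Mdm2, Mdm4, Ppm1d, Cdkn1a and for genes called in at least 2 of the 5 comparisons with control. At most 4 genes of each further list are named, those called in the most comparisons, with ties by p. No 2 arrays held identical values. Alternatives were quantile normalization, median centring, other filters, the second strongest probe set, a replicate block, left-out arrays, sets of replicates and, added after seeing the data, sets of controls. The number of arrays limits the precision. Promoter windows came from RefSeq (GRCm38.p6).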

Additional observations from a re-analysis of the deposited data

Results flagged for a closer look

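In 60 groups of 6 arrays (30 genes, control and knock-out), the highest or lowest array was checked for a wide gap to its nearest neighbour as a share of the group's range. Chance flags about 1 group in 20, and 9 were flagged. Of these, 6 were control replicate 4. It was low for Cdkn1a (8.36, nearest 9.15, gap share 0.726), Plk3 (5.57, nearest 6.13, share 0.705), Perp (6.30, nearest 7.77, share 0.679) and Xpc (6.23, nearest 7.10, share 0.640). It was high for Fas (5.42, nearest 4.86, share 0.727), the only array on which Fas reached 5, and for Dram1 (2.34, nearest 2.28, share 0.631), which is near background. In the knock-outs, Plk3 was high on replicate 5 (5.55, nearest 4.92, share 0.635), Apaf1 low on replicate 6 (8.78, nearest 8.95, share 0.653) and Tnfrsf10b high on replicate 3 (4.25, nearest 4.11, share 0.747), the last below 5 on all arrays. On control replicate 4 the median over all tested probe sets was also low, at 8.25. The cause of these gaps was not tested. Without control replicate 4, the calls of Trp53inp1, Phlda3 and Ddb2 in the knock-out, Cdkn1a in Q20, Apaf1 in Q50, and Pidd1 and Btg2 in Q111 were lost. All of these calls were also lost without control replicate 1, so their loss is not particular to control replicate 4.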

How the results depend on the processing

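Counts of called genes are out of 27, or 14 on the second strongest probe set. No share of all genes is given beside them here, so a changed count cannot be read as particular to the p53 genes. With no filter the count was 3 in the knock-out and 4 in Q111. On the second strongest probe set it was 2 in the knock-out, 5 in Q20, 2 in Q50, 8 in Q91, 4 in Q111 and 5 for the knock-out against the lines, where fewer genes have such a set; there Cdkn1a in Q50 turned from -0.0028 to 2.37 (adjusted p = 0.0108). The knock-out gave 3 with replicates 1 to 3 of both groups and 1 with replicates 4 to 6. Against control replicates 4 to 6 alone, chosen after seeing the data, Q20 gave 3, Q50 gave 2 and Q111 gave 3. Leaving out 1 array gave 3 to 7 in the knock-out, 11 to 15 for the knock-out against the lines, 4 to 10 in Q20, 8 to 16 in Q91, 4 to 8 in Q50 and 5 to 9 in Q111. Same-numbered arrays did not deviate in the same direction (2 of 18 pairs with r over 0.1), so the numbers were not taken as pairs. Every control and knock-out pair had a negative r, from -0.41 to -0.26, and the reason was not tested. Pairs of a control with a line had r from -0.11 to 0.13. With a replicate block the counts were 4, 7, 5, 12 and 4 in the knock-out, Q20, Q50, Q91 and Q111, and 10 for the knock-out against the lines. Calls kept under every setting run were Plk3 in the knock-out, Ccng1 and Plk2 in Q20, none in Q50, 8 of 13 in Q91, and Ccng1, Plk2 and Trp53inp1 in Q111. For the knock-out against the lines, 7 of 13 were kept. The F-test and slope called 0 under all settings. Values under 5 limit what can be read from Plk3 in the knock-out and from the second Cdkn1a probe set.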
